A study of Mus musculus with 3 samples.

Results

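The genes described here carry iron into the cell, store it, release it and set the balance between these steps. They are 9 genes picked by name: *Tfrc*, *Trf*, *Fth1*, *Ftl1*, *Slc40a1*, *Slc11a2*, *Ireb2*, *Aco1* and *Hamp*. All 9 were found among the 24346 gene rows of a table of RNA levels in endothelial cells (ECs) of the adult mouse lung. The table holds 3 RNA-seq libraries, named S38, S44 and S52, which form a single group of wild-type C57BL/6J mice. By the study's methods, the mice were males of 6 to 8 weeks that received an antibody to VE-cadherin through the retro-orbital vein before they were killed, and CD31+ CD45- Podoplanin- cells were then sorted from the digested lung, which leaves lymphatic ECs out. No treated, mutant or other-organ samples entered the analysis, so the values describe levels and their spread over libraries, and no test between groups could be made. The sources used here do not say whether each library came from a separate mouse or from pooled mice, and the spread may therefore be partly technical.

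Most iron in blood travels bound to transferrin, the product of *Trf*. The transferrin receptor (*Tfrc*) brings loaded transferrin into endosomes, where the metal is released and carried into the cytosol by the divalent metal transporter *Slc11a2* (DMT1). Cytosolic iron that is not used is stored inside ferritin, a hollow shell of heavy (*Fth1*) and light (*Ftl1*) chains, and iron leaves the cell through ferroportin (*Slc40a1*), which the liver hormone hepcidin (*Hamp*) removes from the surface. The iron regulatory proteins encoded by *Aco1* and *Ireb2* sense iron and bind a hairpin in target mRNAs, the iron-responsive element (IRE). Bound in the 5′ untranslated region (UTR), they block translation, and bound in the 3′ UTR of *Tfrc*, they protect the mRNA from decay. The table measures mRNA and not translation.

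The hairpins are shown first because they divide the genes into those read by the iron regulatory proteins at either end of the message and those without such an element. GENCODE M21 basic transcripts (GRCm38) were searched, on the sense strand of the UTRs, for the 6-base loop CAGTGN, where N is any base, closed by a stem of 5 base pairs with an unpaired C on its 5′ side. Pairs of G with U, written as T below, counted as base pairs. The pattern was present in the 5′ UTR of *Fth1*, *Ftl1* and *Slc40a1*, against 28 of 20857 genes with a 5′ UTR (0.134%). It was present in the 3′ UTR of *Tfrc*, against 127 of 21643 genes with a 3′ UTR (0.587%). In the 27-base windows below, written 5′ to 3′ in mRNA sense, capitals mark the unpaired C and the loop.
Fth1, 5′ UTR: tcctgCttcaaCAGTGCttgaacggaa
Ftl1, 5′ UTR: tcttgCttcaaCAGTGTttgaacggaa
Slc40a1, 5′ UTR: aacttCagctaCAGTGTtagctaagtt
Tfrc, 3′ UTR, first: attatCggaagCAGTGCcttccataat
Tfrc, 3′ UTR, second: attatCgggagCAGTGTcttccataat
Tfrc, 3′ UTR, next: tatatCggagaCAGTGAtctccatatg
Tfrc, 3′ UTR, last: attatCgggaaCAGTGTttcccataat
The windows of the ferritin chains matched each other at 25 of 27 bases, while those of *Fth1* and *Slc40a1* matched at 13. The first and second windows of *Tfrc* also matched at 25 of 27 bases.

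The *Fth1* window lies in exon 1 at chr19:9982733-9982759 on the plus strand, and the first base of its loop is 126 bases before the coding region. The *Ftl1* window lies in exon 1 at chr7:45459780-45459806 on the minus strand, with the first loop base 164 bases before the coding region. The *Slc40a1* window lies in exon 1 at chr1:45925466-45925492 on the minus strand, with the first loop base 218 bases before the coding region. The *Tfrc* windows all fall in exon 19, the last exon, on the plus strand, at chr16:32631220-32631246, chr16:32631599-32631625, chr16:32631664-32631690 and chr16:32631711-32631737. The first base of their first loop lies 898 bases after the coding region, and that of their last loop 1389 bases after it, within a 3′ UTR of 2461 bases. A looser rule that accepts 4 of 5 stem pairs added *Slc11a2*, whose 3′ UTR window sits at chr15:100395154-100395180 on the minus strand, with the first loop base 47 bases after the coding region. Under that rule, 858 genes (3.96%) had a match in the 3′ UTR. The window is shown because it separates *Slc11a2* from the other genes with an element under the rule used. That rule pairs the sides of the stem without gaps, and 4 of 5 pairs then form, G-U pairs among them. Pairings with an unpaired base on the 3′ side of the stem were not tried.
Slc11a2, 3′ UTR: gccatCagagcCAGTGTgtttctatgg
No window was found in the UTRs of *Trf*, *Ireb2*, *Aco1* or *Hamp* with any of the rules tried, which says only that these letters are not there. The element of *Slc11a2* belongs to its transcript with that last exon, and the gene-level table does not tell its transcripts apart.

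**Figure D1:**
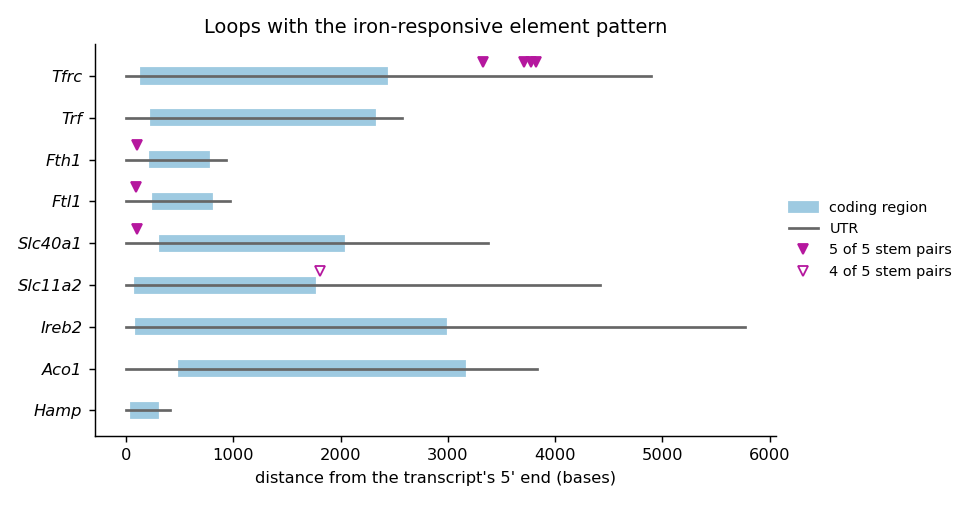
Position of the loop pattern in the 9 iron genes. The x axis gives bases from the 5′ end of an annotated transcript, blue boxes are coding regions, lines are UTRs, and triangles mark loops with 5 of 5 (filled) or 4 of 5 (open) stem pairs: 3 genes carry a filled triangle before the coding region, and *Tfrc* carries 4 after it.

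The levels are in FPKM, fragments per kilobase of transcript scaled to the mapped total, a per-length unit that lets levels of different genes be set side by side. The table does not state depth, but the steps between its lowest values place it at about 38000000 fragments for S38, 38850000 for S44 and 33900000 for S52. The libraries correlated at Pearson r of 0.944 to 0.963 across all rows on the log2(FPKM + 1) scale, where genes are not independent replicates. The endothelial label held, since 8 of 8 endothelial markers were present in every library and *Cdh5*, which encodes VE-cadherin, ranged from 877 to 978 FPKM. Not all markers were as steady, though none differed by more than 2-fold. In S38, S44 and S52, *Erg* (59.2, 43.1 and 84.8 FPKM), *Emcn* (156, 181 and 267) and *Egfl7* (1027, 1127 and 1287) were highest in S52. *Kdr* (380, 360 and 237 FPKM) and *Cldn5* (1486, 1732 and 1029) were lowest there. The libraries also held RNA of other cells, in unequal amounts. In S38, S44 and S52, the summed alveolar type 2 markers were 3778, 3164 and 755 FPKM, the airway markers 2767, 2303 and 401 FPKM, and the platelet markers 1709, 1357 and 40.2 FPKM. S52 was thus lowest in each of these 3 sums, while its endothelial sum (5323 FPKM) was close to that of S38 (5409 FPKM) and below that of S44 (5991 FPKM). Most of the alveolar type 2 sum was *Sftpc* (3333, 2862 and 658 FPKM), which exceeded each endothelial marker in S38 and S44. Most of the airway sum was *Scgb1a1* (2669, 2212.5 and 378 FPKM). Every gene of these 3 lists was lowest in S52. In bulk samples, fewer cells of a type and less RNA per cell cannot be told apart.

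At a mean of 1 FPKM or more, 8 of the 9 iron genes were present, and *Hamp* was the exception. The same mark was reached by 11770 of all 24346 rows (48.3%), the share to set beside the counts of each list below. *Ftl1* and *Fth1* stood far above the rest, followed by *Trf*, by a middle group of *Aco1*, *Ireb2*, *Tfrc* and *Slc11a2*, and by *Slc40a1*. Neighbors in this order were separated in all 3 libraries, with no overlap of their ranges, from *Ftl1* through *Fth1* and *Trf* to *Aco1*, and again from *Slc11a2* through *Slc40a1* to *Hamp*. The order within the middle group was not resolved: *Aco1* and *Ireb2*, *Ireb2* and *Tfrc*, and *Tfrc* and *Slc11a2* each overlapped, and each pair kept its order in 2 of 3 libraries.

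**Figure D2:**
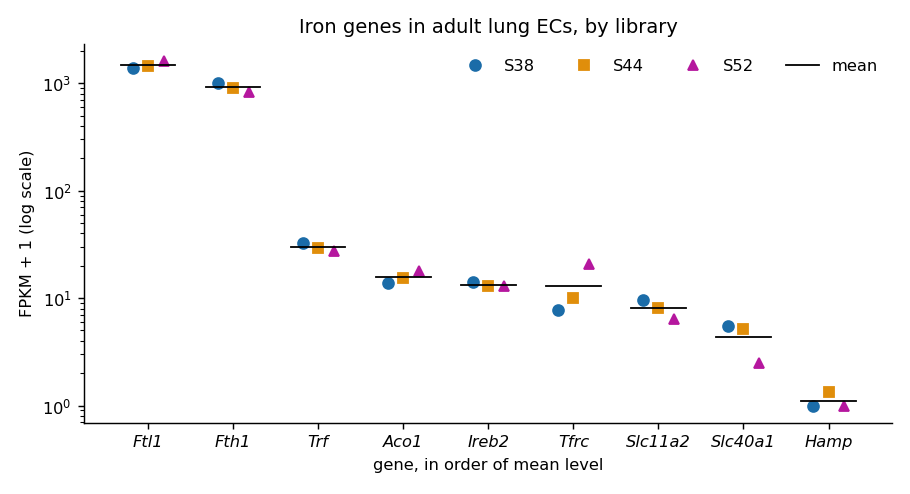
FPKM + 1 (log scale) of the 9 iron genes in S38, S44 and S52, ordered by mean, with a bar at the mean. The ferritin chains lie at 821 FPKM or more in every library, *Tfrc* is highest and *Slc40a1* lowest in S52, and *Hamp* is at 0 in S38 and S52.

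The ferritin chains had the highest mRNA levels of the 9 iron genes. *Ftl1*, the ferritin light chain, which lacks iron-oxidizing activity and helps form the mineral core, measured 1388 FPKM in S38, 1432 in S44 and 1603 in S52 (1474 ± 114, SD, n = 3), and 99.75% of all rows had a lower mean. *Fth1*, the heavy chain that oxidizes iron as it enters the shell, measured 1014, 904 and 821 FPKM in the same order (913 ± 96.6, SD, n = 3), above 99.59% of rows. The ranges of the chains did not overlap, with the light chain higher in each library. The chains moved apart between libraries, so that the ratio of heavy to light came to 0.730 for S38, 0.631 for S44 and 0.513 for S52, a mean of -0.69 ± 0.257 on the log2 scale (SD, n = 3). This ratio does not depend on how the libraries are scaled. The sum of both chains was 2402, 2336 and 2424 FPKM, a coefficient of variation (CV) of 1.93% in the values as deposited. That small spread did depend on scaling, and it became 18% when the libraries were set to the same FPKM sum.

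The *Ftl1* level carries an uncertainty of mapping. Of the 918 windows of 51 bases, the read length, along its transcript, 830 (90.41%) also occur in at least 1 of 16 other annotated genes, chiefly processed pseudogenes such as *Ftl1-ps1*, *Ftl1-ps2* and *Ftl2-ps*. Only *Mir692-2* and *Mir692-3* among these have a row in the table, and both were listed at 0 in all libraries. For *Fth1*, 57 of 879 windows (6.485%) are shared, all with *Gm6977*. How reads with several matches were assigned is not given in the sources used here, so the comparison of light and heavy chain rests partly on that step.

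The genes that release iron from ferritin or deliver it there were also present. *Pcbp1* and *Pcbp2*, RNA-binding proteins that also act as iron chaperones for ferritin, averaged 137 ± 6.88 and 102 ± 24.0 FPKM (SD, n = 3). *Ncoa4*, the cargo receptor that brings ferritin to lysosomes for breakdown, averaged 28.4 ± 4.66 FPKM (SD, n = 3). The mitochondrial ferritin *Ftmt* was listed at 0 in every library.

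The mRNA levels of genes of iron uptake were well below those of the ferritin chains. *Tfrc* measured 6.79 FPKM in S38, 8.99 in S44 and 19.99 in S52 (11.9 ± 7.07, SD, n = 3). S52 stood apart from the others, at 2.94 times S38 and 2.22 times S44, whereas S44 was 1.32 times S38. These values correspond to about 1221, 1652 and 3212 fragments, and the 95% counting interval of S52, 19.3 to 20.7 FPKM, lies clear of that of S38, 6.42 to 7.19 FPKM. Counting intervals cover counting error only. Without S52 the mean fell to 7.89 FPKM. None of the 4840 windows of the *Tfrc* transcript occurs in another annotated gene.

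Being more than 2-fold above both other libraries in S52 was uncommon, seen in 202 of 11770 genes at a mean of 1 FPKM or more (1.72%), and *Tfrc* was the 1 of the 8 iron genes that did so. Immature red cells are rich in transferrin receptor, and the erythroid markers summed to 389 FPKM in S38, 776 in S44 and 91.0 in S52, with *Slc4a1* at 0 in S52. Of the 5 markers, 3 reached a mean of 1 FPKM. Nearly all of the S52 sum was *Hba-a1* (90.99 FPKM), while *Hbb-bs* (185, 308 and 0.0032 FPKM) was near 0 there. The part of these cells in the *Tfrc* value was not tested. The genes whose profile over the 3 libraries was nearest to that of *Tfrc*, by the distance between log2 values centered on their means among 6172 genes, were *Gm10052* (27.6, 37.3 and 77.9 FPKM), *Hsph1* (16.5, 20.9 and 45.3 FPKM) and *Hbegf* (43.4, 52.5 and 122 FPKM). Each was highest in S52. Over 3 libraries of a single group, this likeness is a description of which libraries are high.

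*Trf* measured 31.9 FPKM in S38, 28.3 in S44 and 26.2 in S52 (28.8 ± 2.88, SD, n = 3), within 1.22-fold between its extremes. Transferrin is made mainly in the liver, so the hepatocyte markers were read beside it. They summed to 1.69, 2.88 and 2.84 FPKM, and *Alb*, the albumin gene, stayed between 0.0779 and 0.571 FPKM. Of the 5 markers, 1 (*Apoa1*) reached a mean of 1 FPKM, and *Ttr*, *Ahsg* and *Fgb* were at 0 in S52. The part of liver RNA in the *Trf* value was not tested. Of 2521 windows of the *Trf* transcript, 2010 (79.73%) are shared with the annotated gene *Gm20425*, which has no row in the table.

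*Slc11a2* measured 8.53, 7.07 and 5.46 FPKM in S38, S44 and S52 (7.02 ± 1.54, SD, n = 3), with S52 lowest and a spread of 1.56-fold. Relative to it, *Tfrc* was lower in S38 (a ratio of 0.797) and higher in S44 (1.27) and S52 (3.66). Which of the 2 was more abundant was therefore not settled by these libraries, and without S52 the mean log2 ratio was 0.0089.

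Among 11 other genes of uptake and the endosome, 7 reached a mean of 1 FPKM. The highest were *Snx3*, a sorting nexin that returns the transferrin receptor to the surface (162 ± 10.0 FPKM, SD, n = 3), *Hfe*, which binds the receptor and is mutated in hereditary hemochromatosis (43.3 ± 4.75), and *Mcoln1*, a cation channel of endosomes and lysosomes (39.5 ± 3.93). *Steap3*, the ferrireductase best known from red cell precursors, was at 2.75, 1.22 and 1.91 FPKM, and the second transferrin receptor *Tfr2* did not exceed 0.319 FPKM. *Slc39a14* and *Slc39a8*, carriers of metal ions including iron not bound to transferrin, averaged 8.03 ± 0.698 and 3.495 ± 0.637 FPKM, the first near the level of *Slc11a2* and the second below it. Each of the 3 highest was above *Tfrc* in every library.

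Of 9 genes of scavenger uptake of ferritin, heme or siderophores, 3 reached a mean of 1 FPKM (33.3%, against 48.3% of all rows). They were the heme transporter *Slc48a1* (49.1 ± 4.40 FPKM, SD, n = 3), the lipocalin 2 receptor *Slc22a17* (6.49 ± 1.19) and *Lrp1* (4.62, 2.85 and 6.05 FPKM). *Lrp1* takes up hemopexin with heme. *Cd163*, the hemoglobin receptor of macrophages, did not exceed 0.114 FPKM. Among 5 carriers found in fluids, *Hp* (haptoglobin) was at 30.2, 24.6 and 6.51 FPKM and *Lcn2* (lipocalin 2) at 16.2, 11.7 and 1.73 FPKM, in the order S38, S44, S52. Both had their lowest value in S52. The leukocyte markers summed to 1075, 808 and 169 FPKM in the same order and, like the epithelial and macrophage lists, were least in S52. Nearly all of the leukocyte sum was *Lyz2* (1047, 780 and 166 FPKM). Of the 6 leukocyte markers, 4 reached a mean of 1 FPKM, and *Ptprc* averaged 2.26 FPKM. The part of leukocyte, epithelial or macrophage RNA in the *Hp* and *Lcn2* values was not tested. *Ltf*, or lactoferrin, averaged 0.632 FPKM.

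Ferroportin, the only known exporter of iron ions in mammals, was the lowest of the 8 genes that were present. *Slc40a1* measured 4.47 FPKM in S38, 4.15 in S44 and 1.504 in S52 (3.37 ± 1.63, SD, n = 3). S38 and S44 differed by 1.08-fold, and S52 was 2.97-fold below S38 and 2.76-fold below S44. The estimated fragments were 545, 518 and 164, and the counting interval of S52, 1.28 to 1.75 FPKM, did not meet that of S38, 4.10 to 4.86 FPKM. Without S52 the mean was 4.31 FPKM. A level more than 2-fold below both other libraries in S52 was seen in 946 of 11770 genes (8.04%), and *Slc40a1* was the only iron gene among them.

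Macrophages, which recycle red cells, are a known site of high ferroportin, and the CD45- gate should remove them. The 7 macrophage markers summed to 60.2 FPKM in S38, 30.7 in S44 and 5.33 in S52. Most of that sum was *Chil3* (55.7, 26.1 and 3.28 FPKM), 2 of the 7 reached a mean of 1 FPKM, and *Marco*, *Siglecf* and *Itgax* were at 0 in S52. *Csf1r*, the other marker above that mark, did not follow the sum (1.25, 1.85 and 1.296 FPKM), and *Mrc1* differed little (0.877, 0.743 and 0.638 FPKM). The part of these cells in the *Slc40a1* value was not tested. The genes nearest to it in profile, of 6173, were *Gsta3* (21.6, 20.3 and 7.29 FPKM), *Napsa* (35.5, 33.4 and 12.3 FPKM) and *Tsc22d1* (608, 581 and 205 FPKM), each lowest in S52. *Napsa* is known as a product of alveolar type 2 cells, whose marker sum in S52 was also the lowest of the 3. The part of alveolar type 2 cells in the *Slc40a1* value was not tested either.

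**Figure D3:**
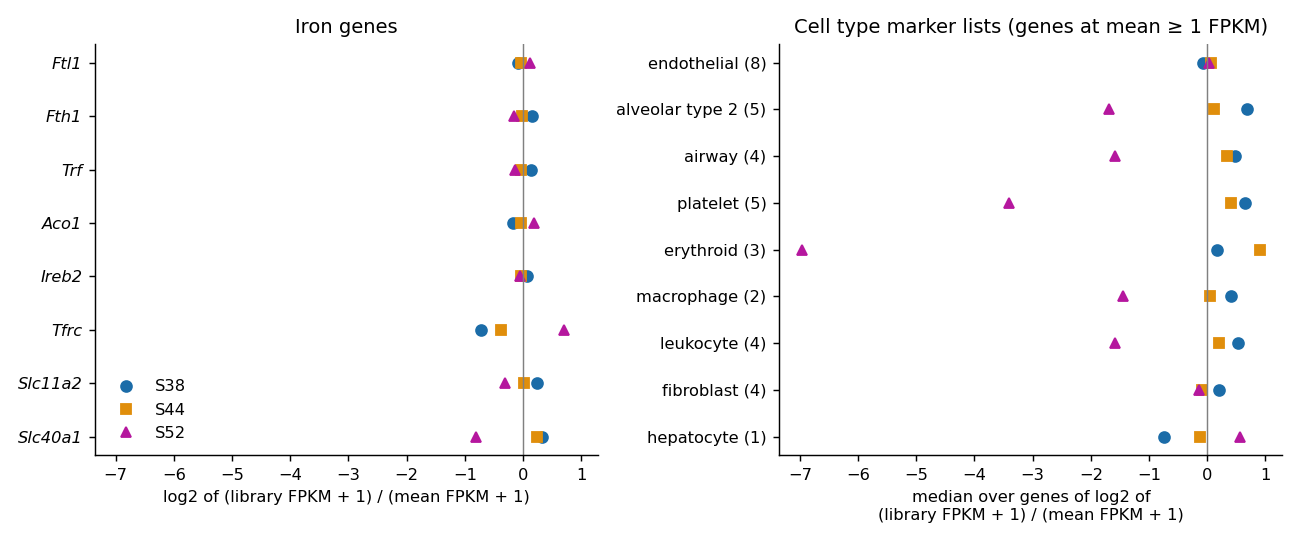
Left, log2 of each library's FPKM + 1 over the mean FPKM + 1 for the 8 iron genes that were present; right, the median of the same quantity over the genes of each cell type marker list that reach 1 FPKM, with their number in parentheses. *Tfrc* is high and *Slc40a1* low in S52. The alveolar type 2, airway, platelet, erythroid, macrophage and leukocyte lists are low in S52. The median of the endothelial list stays near 0, while its single genes, not drawn, lie on both sides.

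Set against each other, uptake and export gave a *Tfrc* to *Slc40a1* ratio of 1.52 in S38, 2.165 in S44 and 13.3 in S52. The ratio was above 1 in each library, with a log2 mean of 1.82 ± 1.68 (SD, n = 3), or 0.86 without S52, and S52 made most of its spread. The mRNA ratio of *Tfrc* to *Fth1*, which carry the element at opposite ends, was 0.0067, 0.0099 and 0.0243. *Fth1* mRNA thus exceeded that of the receptor in every library, and by least in S52.

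Of the other genes of export, *Abcg2*, a transporter that can export heme, was the highest (42.3, 44.5 and 43.1 FPKM). It was also the steadiest in the values as deposited. The ferroxidases *Cp* (7.41 ± 1.103 FPKM, SD, n = 3) and *Heph* (5.11 ± 1.54), which oxidize iron as it leaves ferroportin, were both present. The heme exporter *Flvcr1*, listed under its older name *Mfsd7b*, averaged 6.46 ± 0.831 FPKM, and its relative *Flvcr2*, listed as *Mfsd7c*, was at 1.56, 2.19 and 0.323 FPKM with S52 lowest. The third ferroxidase of this list, *Hephl1*, was listed at 0 throughout.

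The iron sensors themselves were of similar level. *Ireb2*, which encodes IRP2, measured 13.1, 12.0 and 11.9 FPKM (12.3 ± 0.643, SD, n = 3), with a CV of 5.22% in the values as deposited. *Aco1*, the cytosolic aconitase that turns into IRP1 when it loses its iron-sulfur cluster, measured 13.0, 14.4 and 17.1 FPKM (14.8 ± 2.08). The ratio of *Ireb2* to *Aco1* came to 1.01 for S38, 0.837 for S44 and 0.695 for S52, so *Aco1* was the higher in S44 and S52 and the genes were level in S38. Neither transcript shares a 51-base window with another annotated gene.

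Their controls and other known targets were all present, 9 of 9 at a mean of 1 FPKM or more. *Epas1*, which encodes HIF2α, a hypoxia factor whose message is known to bind iron regulatory proteins, was by far the highest at 752 ± 91.9 FPKM (SD, n = 3). The loop pattern was not found in its annotated UTRs with these rules. *Fbxl5*, the iron-sensing subunit of the ligase that degrades IRP2, averaged 32.9 ± 3.83 FPKM, and its partners *Skp1a* and *Cul1* averaged 102 ± 7.56 and 42.8 ± 7.33 FPKM. The redox factor *Nfe2l2*, an activator of ferritin genes, and *Bach1*, their heme-sensing repressor, averaged 91.4 ± 8.34 and 22.4 ± 2.36 FPKM.

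*Hamp* was read at 0.335 FPKM in S44 and was listed at 0 in S38 and S52. The S44 value corresponds to about 3 fragments, with a 95% counting interval of 0.0692 to 0.980 FPKM, and a value of 0 allows up to 0.316 FPKM in S38 and 0.340 FPKM in S52, the level of 3 fragments. Hepcidin mRNA was therefore not detectable at this depth in S38 and S52, and S44 did not stand above the limit that a 0 allows in S52. Its paralog *Hamp2*, which shares 57 of 360 windows (15.83%), was listed at 0 in all libraries. Upstream of hepcidin, *Bmp6*, a ligand that ECs of the liver release to induce it, was abundant, at 140 FPKM in S38, 156 in S44 and 137 in S52 (144 ± 10.1, SD, n = 3). *Bmp2* was much lower, at 0.911, 0.840 and 2.25 FPKM, and highest in S52. *Neo1*, a membrane partner in the same signal, averaged 1.25 ± 0.353 FPKM, *Hjv* (hemojuvelin, listed as *Hfe2*) did not exceed 0.0963 FPKM, and the protease *Tmprss6* was listed at 0. Of the 7 genes of this axis, 3 reached 1 FPKM.

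Heme and iron-sulfur cluster production is where much cellular iron is spent, and every gene of both lists was present, 13 of 13 and 11 of 11. *Alas1*, the housekeeping enzyme of the first step of heme synthesis, averaged 47.2 ± 2.24 FPKM (SD, n = 3), *Urod* 33.4 ± 7.17, and *Hmox1*, which breaks heme down and frees its iron, 25.04 ± 7.17. *Alas2*, the form of red cell precursors, was at 4.37, 13.9 and 3.56 FPKM, highest in S44, which also had the highest erythroid sum. Its message carries the loop pattern in the 5′ UTR, with the first loop base 31 bases before the coding region. *Fech* (13.9, 13.0 and 6.63 FPKM), *Uros* (6.13, 8.02 and 2.83 FPKM) and *Blvrb* (12.4, 13.7 and 4.99 FPKM) were each lowest in S52. In that order, they belong to the last step of heme synthesis, to an earlier step and to heme breakdown.

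In mitochondria, the cluster scaffold *Iscu* averaged 84.7 ± 3.23 FPKM (SD, n = 3), the chaperone *Hspa9* 44.6 ± 14.7, and the iron importer *Slc25a28* (mitoferrin 2) 21.7 ± 3.05. Its relative *Slc25a37* (mitoferrin 1) averaged 12.1 ± 1.22 FPKM. *Glrx5* (22.3, 28.0 and 13.0 FPKM) and *Lyrm4* (8.58, 6.504 and 3.94 FPKM), both needed for cluster assembly, were lowest in S52.

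**Figure D4:**
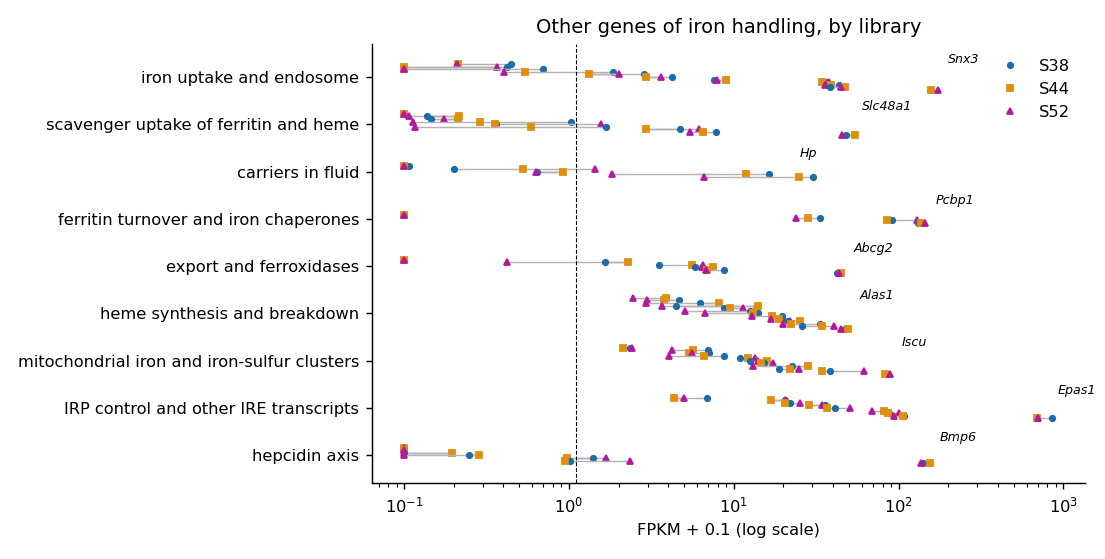
FPKM + 0.1 (log scale) of 75 other genes in 9 lists of iron handling, with a line joining the libraries of each gene and the gene of highest mean named in each list. The dashed line is at 1 FPKM, which 56 of the 75 genes reach, among them all genes of the heme, mitochondrial and IRP lists.

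Across the 9 lists, 56 of 75 genes (74.7%) reached a mean of 1 FPKM, against 48.3% of all rows, and the median of their means was 7.41 FPKM against 0.784 over all rows. Of these 56, the highest library was more than 2-fold the lowest in 12 (21.4%). The same held for 2363 of 11770 genes (20.1%), a share close to that of the lists. S52 was the lowest library in 9 of the 12 and in 1534 of the 2363.

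Among the 8 iron genes present, 2 passed that same mark, *Tfrc* and *Slc40a1*, and a count of 2 of 8 is near the background of 20.1%. Both rest on S52: without it, none of the 8 differed by more than 2-fold between S38 and S44. Both also kept the mark, with S52 more than 2-fold from each other library in the same direction, under 3 other scalings of the libraries. For *Tfrc* in S52 against S44 this was by a narrow margin under the upper-quartile scaling, where the log2 ratio rounds to 1.0, the mark itself. In the values as deposited, the other 6 genes spread from 1.101-fold for *Ireb2* to 1.56-fold for *Slc11a2*. The median CV of the 8, also as deposited, was 12.32% against 17.61% over all genes at that level. Under the 3 other scalings these 6 genes stayed within 2-fold, but the size of their spread depends on the scaling. S44 lay between the other libraries for 8 of 8, against 42.6% of all genes. That count became 2 with the libraries set to the same FPKM sum, and 7 or 8 under the other scalings.

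**Figure D5:**
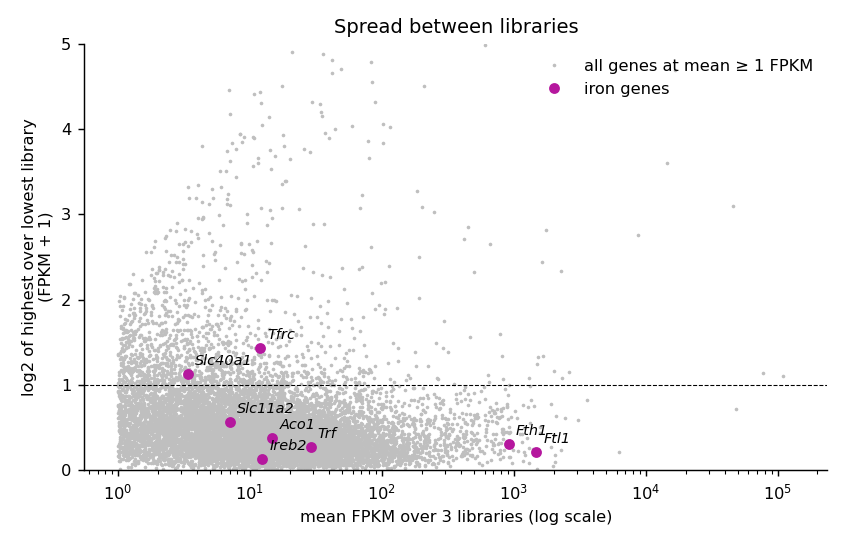
Mean FPKM (log scale) against log2 of the highest over the lowest library (FPKM + 1) for the 11770 genes at a mean of 1 FPKM or more (gray) and the 8 iron genes among them. *Tfrc* and *Slc40a1* lie above the dashed line at 2-fold and the other 6 below it. The axis ends at 5, and 100 genes above it are not drawn.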

How the data were processed

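RNA of 3 samples of sorted adult lung ECs was sequenced as 51-base read pairs from poly-A libraries that do not keep strand. The authors deposited 1 table of FPKM values per gene (mm10). The submitters' processing notes name bcl2fastq 2.17, FastQC 0.11.5, Trimmomatic 0.36, TopHat2 2.1.0 and Cufflinks 2.2.1. The study's methods name STAR and HTSeq instead, for read counts. The step that made the FPKM, its annotation and its treatment of reads with several matches are not given in the sources used here. No per-sample column was left out.

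FPKM were used as deposited, with a pseudocount of 1 on the log2 scale for correlations and plots, and a gene counted as present at a mean of 1 FPKM. As all samples form 1 group, no test was run: an exact two-sided test on 3 pairs cannot go below p = 0.25. Depth was estimated from the steps between low FPKM of genes with a transcript of 800 to 4000 bases (7077 genes, of which 74.88 to 78.4% of low values fell within 0.15 of a whole fragment count), a choice made after the values were seen. On simulated libraries of 7077 genes, the largest error of the estimate was 0.249%. The simulation used the transcript lengths and whole counts that the estimate assumes, so it does not measure the error for the deposited values. Counting intervals are exact Poisson 95% intervals on estimated fragments. IRE loops were searched in GENCODE M21 transcripts of GRCm38, with no genome sequence used.

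The 9 members and all lists were chosen with earlier results of these data known. Text names the 3 genes of highest mean in each list, those over 2-fold between libraries, and the 3 nearest profiles to *Tfrc* and *Slc40a1*. Named beyond this rule are single cell type markers and some list genes whose values had been seen (*Hamp2*, *Slc39a14*, *Slc39a8*, *Tfr2*, *Cd163*, *Ftmt*, *Heph*, *Hephl1*, *Fbxl5*, *Cul1*, *Bach1*, *Hjv*, *Tmprss6*, *Slc25a37*). Of the 75 list genes, 5 were matched by a RefSeq synonym. Python 3.11.15, numpy 2.4.6, pandas 2.3.3, scipy 1.17.1 and matplotlib 3.10.9 were used. Some list genes are not reported here.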

Additional observations from a re-analysis of the deposited data

How the results depend on the processing

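With 3 libraries of a single group and no counts, the data limit every statement to level and spread. Rescaling to the same sum, median of ratios or upper quartile moved the means of the 9 genes by less than 1 SD in 27 of 27 cases. The divisors of each rescaling were set to average 1 over the libraries, so a mean over them moves little by design. That count is therefore no measure of stability. Single libraries moved more, with divisors of 0.829 for S38 and 1.152 for S44 at the same sum. Leaving out 1 of 3 libraries cannot move a mean by as much as 1 SD, so it says nothing of stability here: the mean of *Tfrc* was 7.89 FPKM without S52, against 11.9, and that of *Hamp* was 0 without S44. The number of iron genes over 2-fold between libraries ranged from 0 to 2 when each library was left out in turn, and it was 0 without S52. The number of list genes present, 56, became 34 at a threshold of 10 FPKM, by construction of a stricter mark. Genes with a loop in the 5′ UTR numbered 28, and 175 with 4 of 5 stem pairs or 89 with no unpaired C required. In the 3′ UTR they numbered 127, and 858 or 515 under the same rules. The rescalings of the S52 values, of the ferritin sum and of the position of S44 were added after seeing the data. No paired analysis was possible because all samples form 1 group.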
